A study of Mus musculus with 18 samples.

Results

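Basal cells and estrogen receptor positive (ER+) luminal cells, sorted from the mammary glands of mice in mid pregnancy, were compared gene by gene. The 2 groups held 2 libraries each, labelled Pregnancy BC 1 and 2 and Pregnancy LC ER+ 1 and 2. A gene entered the comparison when its scaled read count was 10 or more in at least 2 of these 4 libraries. This rule kept 18805 of the 22269 genes tested over the 18 libraries of the series, which also covers ER- luminal cells, puberty and adulthood. For 1107 genes the second highest of the 4 values was exactly 10, and for 1731 genes left out it was 7. All mice, those of both compared groups included, had the genotype ERrtTA/TetOCre/rosaYFP, a tetracycline-controlled Cre with a YFP reporter. The labels name no sorting gates, doxycycline treatment or age of the mice. The cell type field of the basal samples reads BC luminal cells, although their titles say BC, so the label was set against marker genes before any comparison.

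Values are scaled reads, that is reads per gene on a common library total of 20000000. Read totals were 6031084 and 5996673 in the basal libraries, with 6360313 and 6143338 in the ER+ luminal libraries, so that 1 read was worth 3.12 to 3.31 scaled reads. Spearman correlations across genes, which are no independent replicates, were 0.984 between the basal libraries and 0.975 between the ER+ luminal libraries, against 0.915 to 0.927 across the groups. Log2 fold changes are basal over ER+ luminal on log2(scaled reads + 1), with their standard error after ±. Adjusted p-values are 2-sided, from limma with Benjamini-Hochberg adjustment over the 22269 genes, with the spread taken from all 18 libraries. A gene is called at an adjusted p under 0.05. Nothing in the labels ties replicates to different mice. The p-values hence reflect how far these particular libraries scatter, and that scatter could be technical. In sorted bulk samples, fewer cells of a type and less RNA per cell cannot be told apart.

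The mammary epithelium is built from an outer basal layer and an inner luminal layer. Basal cells are myoepithelial: they hold smooth muscle proteins, lie on a basement membrane that they help to make, and squeeze milk from the alveoli when oxytocin binds its receptor on them. ER+ luminal cells carry receptors for estrogen, progesterone and prolactin and pass the hormone signal on through secreted factors such as amphiregulin, WNT4 and RANKL, which act on neighbouring cells during alveolar growth.

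Marker genes matched the sample titles. Krt5, a basal keratin (chr15:101707070-101712898), had 11391 and 9384 scaled reads in the basal libraries and 923 and 546 in the ER+ luminal libraries. Acta2, smooth muscle actin (chr19:34241090-34255590), had 93797 and 89496 in basal and 10325 and 7773 in ER+ luminal cells. Esr1, the estrogen receptor (chr10:4611593-5005614), had 406 and 540 in basal and 5666 and 2096 in ER+ luminal cells. The basal libraries were thus the high ones for Krt5 and Acta2 and the low ones for Esr1, and in none of these genes did the groups overlap. Tnfsf11, which encodes RANKL (chr14:78277445-78308043), had 112 and 166 in basal and 8763 and 5044 in ER+ luminal cells. Summed over 10 basal markers, the basal libraries held 328400 and 324166 scaled reads and the ER+ luminal libraries 34127 and 27592. Over 9 ER+ luminal markers the sums were 3975 and 5130 in basal and 91566 and 38030 in ER+ luminal libraries. The cell type field is therefore not followed, and the groups are called basal and ER+ luminal after their titles and markers.

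**Figure D1:**
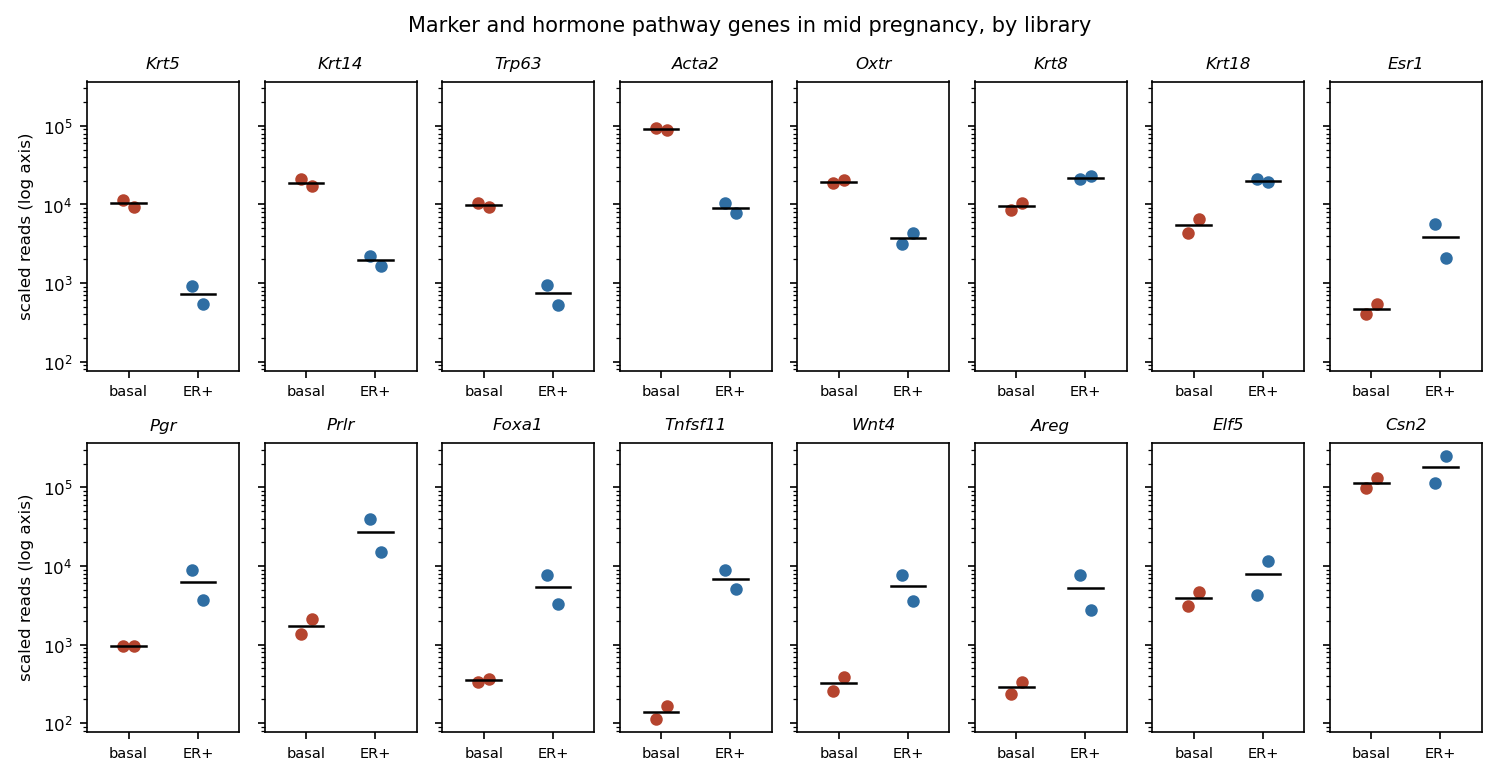
Scaled reads (log axis) of 16 marker and hormone pathway genes, 1 point per library, with basal libraries left and ER+ luminal libraries right. Keratin 5, actin and Oxtr points lie higher in basal cells and hormone receptor and ligand points lie higher in ER+ luminal cells, while the points of Csn2 and Elf5 overlap.

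Basal transcripts were present in the luminal libraries of pregnancy. Relative to the mean of the basal libraries, the 10 basal markers had a median level of 9.54% in ER+ luminal replicate 1, between 8.67% for Col17a1 and 16.7% for Krt17. In ER+ luminal replicate 2 the median was 7.25%, with 5.26% for Krt5 at the low end and 22.5% for Oxtr at the high end. The ER- luminal libraries of pregnancy had medians of 10.7% and 10.7%, with Oxtr at 31.4% and 32.7%. The puberty ER+ luminal libraries had 2.09% and 0.372% of the puberty basal mean, so the luminal libraries of pregnancy held the larger share. In the opposite direction, the 9 ER+ luminal markers stood at a median of 6.06% and 6.94% of their ER+ luminal mean in the basal libraries, lowest for Tnfsf11 (1.62% and 2.4%) and highest for Pgr (15.3% and 15.1%). The part of these transcripts in the differences below was not tested.

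**Figure D2:**
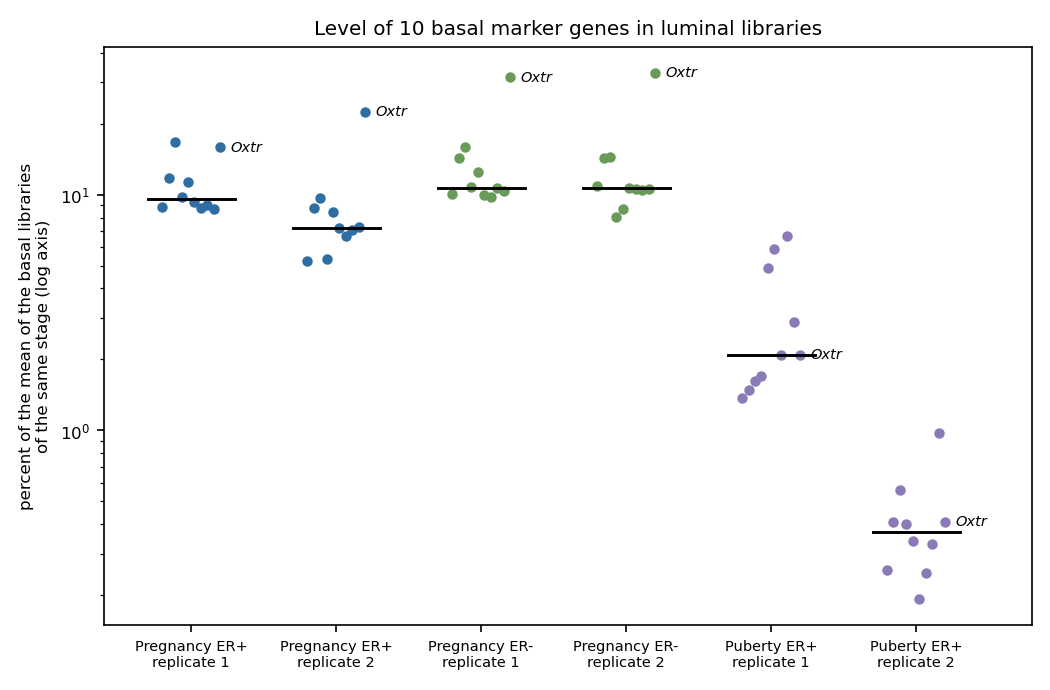
Level of 10 basal marker genes in luminal libraries, as percent of the mean of the basal libraries of the same stage (log axis), 1 point per gene. The medians are 9.54% and 7.25% in the ER+ luminal libraries of pregnancy and 2.09% and 0.372% in those of puberty.

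The ER+ luminal replicates also differed from each other. Replicate 1 had the higher Esr1 value (5666, against 2096 in replicate 2), and replicate 2 had the higher values of Elf5, a regulator of milk-producing cells (11434, against 4329 in replicate 1). Csn2, β-casein, had 249723 scaled reads in replicate 2 and 113910 in replicate 1. Over 7 ER- luminal and milk markers the basal libraries summed to 130283 and 180371 and the ER+ luminal libraries to 156869 and 357894. Results for luminal genes therefore rest on a pair of libraries that lie apart, and calls that are lost without one of them are given with each group of genes.

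In all, 1407 genes were higher in basal than in ER+ luminal cells (7.48% of 18805) and 1511 were lower (8.04%), which makes 2918 called genes (15.5%). The counts of each gene list below are to be read against these shares over all genes. At an unadjusted p under 0.05 there were 5589 genes, and the median log2 fold change over all genes was -0.13. Scaling by the median ratio of counts set that median to 0.01 and gave 1769 higher and 1111 lower genes, so that 61.4% of calls were higher in basal cells, against 48.2% on the common library total. With 1 library left out the number called was 1049 without basal replicate 1, 1633 without basal replicate 2, 1763 without ER+ luminal replicate 1 and 1853 without ER+ luminal replicate 2. Taking the spread from the 6 pregnancy libraries alone called 1905 higher (10.1%) and 1668 lower genes (8.87%). The groups did not overlap in 4890 genes that were higher in basal cells (26%) and in 7058 that were lower (37.5%). Where called genes are said below to be separate between the groups, this describes their values and is no support beyond the call.

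**Figure D3:**
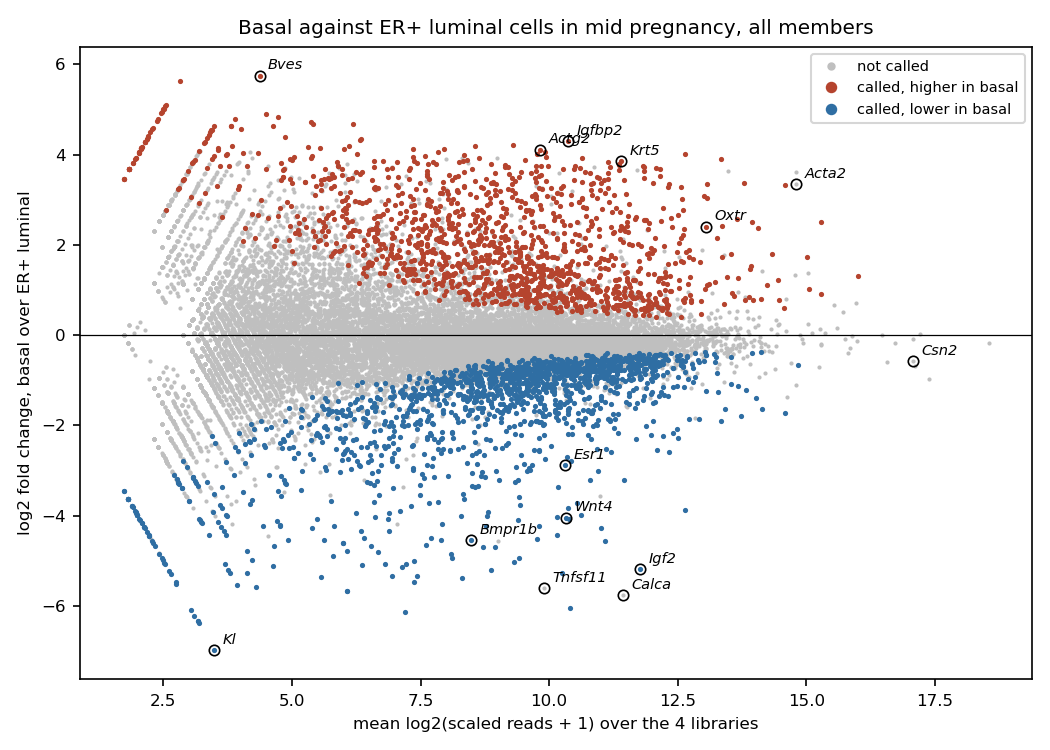
Log2 fold change of basal over ER+ luminal cells against the mean log2(scaled reads + 1) of the 4 libraries for 18805 genes, with called genes coloured. Krt5, Oxtr, Actg2, Igfbp2 and Bves lie above 0 and Esr1, Wnt4, Igf2, Kl and Bmpr1b below 0, while Csn2, Acta2, Tnfsf11 and Calca are labelled but not called (grey).

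Keratins and transcription factors of the basal layer were higher in basal cells. Of 16 genes on this list, 12 were called higher and 0 lower (against 7.48% and 8.04% of all genes), with a median log2 fold change of 2.71, against -0.13 over all genes. Krt5 was higher by 3.86 ± 0.72 (adjusted p = 0.00528), and so was its partner Krt14, with 20793 and 17060 scaled reads in basal and 2227 and 1663 in ER+ luminal cells (3.29 ± 0.62, adjusted p = 0.00567; chr11:100203162-100207548). Krt15 had 2777 and 1994 in basal and 362 and 214 in ER+ luminal cells (3.07 ± 0.39, adjusted p = 0.0001). Krt17, a keratin shared by basal cells of several glands, had 7423 and 5464 in basal and 1073 and 624 in ER+ luminal cells (2.96 ± 0.51, adjusted p = 0.00271). Trp63 encodes p63, the transcription factor that marks basal epithelia (chr16:25683763-25892102). It had 10387 and 9166 in basal and 955 and 520 in ER+ luminal cells (3.79 ± 0.72, adjusted p = 0.00589). Snai2, which encodes the zinc finger repressor SLUG, had 3109 and 2951 in basal and 315 and 220 in ER+ luminal cells (3.52 ± 0.43, adjusted p = 6.66e-05). Id4, an inhibitor of helix-loop-helix factors, was higher by 3.75 ± 0.77 (adjusted p = 0.00716). Both libraries of basal cells exceeded both ER+ luminal ones in each of these genes. Srf, which encodes serum response factor, had 3837 and 3749 in basal and 1547 and 1705 in ER+ luminal cells (1.22 ± 0.16, adjusted p = 0.000112), and its cofactor Mkl1 was higher by 1.02 ± 0.17 (adjusted p = 0.00113). The cofactor gene Mkl2 had 2088 and 2481 in basal and 2869 and 2942 in ER+ luminal cells and was not called (-0.35 ± 0.21), and neither was myocardin (Myocd), at 30 and 24 in basal and 19 and 10 in ER+ luminal cells. Sox9 was not called at 5648 and 5593 in basal and 2875 and 4424 in ER+ luminal cells. Without basal replicate 1 the list had 7 called genes, and Trp63, Krt14 and Id4 missed the threshold (adjusted p = 0.0512, 0.0537 and 0.064). Without ER+ luminal replicate 2 Trp63 and Id4 missed it (0.0504 and 0.0595).

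Smooth muscle contraction genes had large differences, many of them with large errors. Of 17 genes of the contractile apparatus 10 were called higher and 0 lower, with a median log2 fold change of 3.19. The fit to the 6 pregnancy libraries called 17 of 17 higher, and edgeR on recovered reads 15, against 10.1% and 10.2% of all genes called higher (edgeR called 7.54% lower). Actg2, the enteric smooth muscle actin, had 3781 and 3742 in basal and 234 and 201 in ER+ luminal cells (4.11 ± 0.77, adjusted p = 0.00382). Calponin (Cnn1) had 15814 and 15298 in basal and 1369 and 1040 in ER+ luminal cells (3.7 ± 0.92, adjusted p = 0.0245). These are actin and an actin-binding protein of the same thin filament. Tropomyosin genes were both higher: Tpm2 had 16206 and 14732 in basal and 1631 and 1102 in ER+ luminal cells (3.53 ± 0.71, adjusted p = 0.00881), and Tpm1 was higher by 2.43 ± 0.18 (adjusted p = 1.31e-06). Caldesmon (Cald1, 3.07 ± 0.55), transgelin (Tagln, 3.07 ± 0.69), smoothelin (Smtn, 2.6 ± 0.25), filamin A (Flna, 2.51 ± 0.31), the intermediate filament protein synemin (Synm, 3.15 ± 0.52) and vinculin (Vcl, 1.64 ± 0.17), which links actin to adhesion sites, were called as well. The motor itself was not called in the fit to 18 libraries. Myh11, the smooth muscle myosin heavy chain, had 98009 and 102887 in basal and 9355 and 7220 in ER+ luminal cells (3.61 ± 1.42, adjusted p = 0.136, and 3.88e-08 with the 6 pregnancy libraries alone). Mylk, the kinase that switches myosin on, had 39148 and 42013 in basal and 3674 and 2861 in ER+ luminal cells (3.64 ± 1.25, adjusted p = 0.0892, and 3.88e-08 with 6 libraries). Its substrate, the light chain Myl9, had 12126 and 11762 in basal and 1111 and 808 in ER+ luminal cells (3.65 ± 1.17, adjusted p = 0.0683, and 6.14e-08 with 6 libraries). For Acta2 the difference was 3.35 ± 1.12 (adjusted p = 0.0811, and 9.84e-08 with 6 libraries). In these 4 genes the lowest basal library was far above the highest ER+ luminal one. Such separation with basal higher held for 26% of all genes, so it does not stand in for a call. Cnn1 lost its call without any 1 of the 4 libraries (adjusted p = 0.126, 0.0982, 0.0852 and 0.12). Tpm2 lost it without basal replicate 1 (0.0674) or ER+ luminal replicate 2 (0.0625), and Tagln without basal replicate 2 (0.0703) or ER+ luminal replicate 2 (0.0769).

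Serum response factor binds the CArG box, so the 250 bases before the start of 2 genes of this list are shown for the boxes they hold, from RefSeq on GRCm38.p6, 5′ to 3′ on the gene's strand. The box was searched on both strands as CC, 6 positions of A or T with at most 1 G or C among them, then GG, and matches are in capitals. Positions are counted from the RefSeq start. For both genes this start lies inside the gene interval of the GENCODE annotation, from which gene coordinates are taken, so the stretch shown overlaps that interval (most of it for Acta2).
Acta2, chr19:34255374-34255623, minus strand: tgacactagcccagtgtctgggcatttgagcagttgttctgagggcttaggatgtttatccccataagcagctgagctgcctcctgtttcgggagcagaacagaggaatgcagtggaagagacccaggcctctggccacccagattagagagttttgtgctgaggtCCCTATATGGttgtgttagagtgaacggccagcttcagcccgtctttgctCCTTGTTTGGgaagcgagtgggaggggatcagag
Myl9, chr2:156775214-156775463, plus strand: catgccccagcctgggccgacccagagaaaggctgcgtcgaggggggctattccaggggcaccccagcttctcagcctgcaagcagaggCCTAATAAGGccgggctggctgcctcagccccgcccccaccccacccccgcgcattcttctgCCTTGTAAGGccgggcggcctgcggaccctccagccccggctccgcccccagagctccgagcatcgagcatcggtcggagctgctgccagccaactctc
The Acta2 matches begin 84 and 34 bases before the start, each with 1 G or C in the core. Those of Myl9 begin 161 and 99 bases before it, with 0 and 1. Of 14 list genes with a promoter sequence, 4 had a match (28.6%: Acta2, Myl9, Synm and Vcl), against 2643 of 27025 genes (9.78%). Without the allowance for G or C the counts were 2 of 14 (14.3%: Myl9 and Vcl) and 439 of 27025 (1.62%). A match is a string of letters and says nothing of binding in these cells.

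Oxtr and the potassium channel gene Kcnma1 were among the genes higher in basal cells, whereas Itpr2, Itpr3, Orai1 and Plcb3 were lower. Of 22 genes for oxytocin and calcium signalling, 9 were called higher and 4 lower (median 0.72), against 7.48% higher and 8.04% lower over all genes. Oxtr, the receptor that triggers milk ejection (chr6:112473683-112489943), had 18837 and 20239 in basal and 3100 and 4395 in ER+ luminal cells (2.4 ± 0.57, adjusted p = 0.0194). Both basal libraries lay above both ER+ luminal ones. Gnaq, the G protein subunit that couples this receptor to phospholipase C, was higher by 0.7 ± 0.16 (adjusted p = 0.00905). The phospholipase gene Plcb3 was lower, with 1341 and 1378 in basal and 2451 and 1957 in ER+ luminal cells (-0.69 ± 0.18, adjusted p = 0.021). The receptors for inositol trisphosphate, which release calcium from stores, moved in different directions. Itpr1 had 4189 and 4206 in basal and 2149 and 2519 in ER+ luminal cells (0.85 ± 0.19, adjusted p = 0.0074). Itpr2 had 1822 and 1934 in basal and 12065 and 6352 in ER+ luminal cells (-2.22 ± 0.23, adjusted p = 1.33e-05). Itpr3 had 1601 and 1719 in basal and 3533 and 3246 in ER+ luminal cells (-1.03 ± 0.16, adjusted p = 0.000517). Type 1 was thus the only one of the 3 receptor genes that was higher in basal cells, and no library overlapped between the groups in any of them. Store-operated entry was split as well: the sensor gene Stim1 was higher by 0.74 ± 0.2 (adjusted p = 0.0247), and the channel gene Orai1 was lower, with 294 and 348 in basal and 799 and 814 in ER+ luminal cells (-1.33 ± 0.34, adjusted p = 0.0171).

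Channel and relaxation genes of smooth muscle completed this list. Kcnma1, the pore of the large-conductance potassium channel, had 382 and 457 in basal and 38 and 46 in ER+ luminal cells (3.29 ± 0.47, adjusted p = 0.000257). Its smooth muscle subunit Kcnmb1 had 1864 and 2083 in basal and 163 and 101 in ER+ luminal cells and was not called (3.93 ± 1.34, adjusted p = 0.0826, and 4.6e-07 with the 6 pregnancy libraries). The L-type calcium channel gene Cacna1c (2.39 ± 0.72, adjusted p = 0.0485), the cGMP-dependent kinase gene Prkg1 (2.07 ± 0.52, adjusted p = 0.0191) and the myosin phosphatase subunit gene Ppp1r12a (1.61 ± 0.16, adjusted p = 1.14e-05) were higher. Rock1 and Rock2, kinases that act on the same phosphatase, were not called, with 4117 and 3924 in basal against 5130 and 4033 in ER+ luminal cells for Rock1 and 6353 and 5848 against 5754 and 4754 for Rock2. In this list 5 genes were called without basal replicate 1 (3 higher, 2 lower) and 4 without basal replicate 2 (2 higher, 2 lower). Without ER+ luminal replicate 1 there were 4 higher and 2 lower, and without ER+ luminal replicate 2 there were 4 higher and 3 lower. Oxtr lost its call without any 1 library (adjusted p = 0.101, 0.0926, 0.118 and 0.0563 in the order basal 1 and 2, then ER+ luminal 1 and 2), as did Prkg1 (0.118, 0.0812, 0.127 and 0.0521), Orai1 (0.142, 0.0589, 0.0761 and 0.0823) and Cacna1c (0.207, 0.143, 0.106 and 0.225). Itpr1 lost it in 3 of these cases (0.0639, 0.0504 and 0.0699), Plcb3 in 3 (0.136, 0.091 and 0.175), Stim1 in 3 (0.206, 0.0602 and 0.29) and Gnaq in 2 (0.0986 and 0.115).

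Basement membrane genes were higher in basal cells as a broad group, with 16 of 20 called higher, 1 lower and a median of 2.25. Collagen IV chains lead this sheet: Col4a1 had 80473 and 76569 in basal and 9885 and 6116 in ER+ luminal cells (3.34 ± 0.41, adjusted p = 0.000341), and Col4a2 was higher by 3.36 ± 0.4 (adjusted p = 0.000201). Col4a6 had 4700 and 4272 in basal and 609 and 666 in ER+ luminal cells (2.81 ± 0.2, adjusted p = 1.31e-06), and Col4a5 was higher by 2.55 ± 0.23 (adjusted p = 4.84e-06). Every basal library was above every ER+ luminal one for these chains. Laminin subunits were split by chain. Lama3, an α chain of the laminin of hemidesmosomes, had 16393 and 16302 in basal and 1591 and 1027 in ER+ luminal cells (3.68 ± 0.48, adjusted p = 0.000507), and Lama1 had 28406 and 26570 in basal and 2888 and 2513 in ER+ luminal cells (3.35 ± 0.59, adjusted p = 0.00368). Lamb3, a β chain of that laminin, was higher too (2.15 ± 0.24, adjusted p = 2.67e-05). Lama5, another α chain, was the one called gene of the list that was lower, with 5559 and 5030 in basal and 14313 and 7069 in ER+ luminal cells (-0.93 ± 0.27, adjusted p = 0.0363). It lost that call without basal replicate 1 (adjusted p = 0.13), basal replicate 2 (0.17) or ER+ luminal replicate 1 (0.337). Perlecan (Hspg2, 2.58 ± 0.26), fibulin 2 (Fbln2, 3.27 ± 0.54), Sparc (2.36 ± 0.21), a collagen-binding protein, and agrin (Agrn, 0.94 ± 0.19) were also higher, and agrin missed the threshold without ER+ luminal replicate 2 (adjusted p = 0.0625). Tenascin C (Tnc) overlapped between the groups, at 844 and 1222 in basal and 986 and 3155 in ER+ luminal cells.

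Fibroblasts make many of the same matrix genes, and all 10 fibroblast markers had positive log2 fold changes, from 0.8 to 1.89. The 6 defining ones (Pdgfra, Col1a1, Col1a2, Dcn, Lum and Dpt) summed to 100619 and 94783 scaled reads in basal and 51150 and 25098 in ER+ luminal libraries, with none of them at 0. Col6a3 alone was called in the fit to 18 libraries (1.82 ± 0.51, adjusted p = 0.0383, and 0.191, 0.113 and 0.236 without basal replicate 1, basal replicate 2 or ER+ luminal replicate 2), and 7 of 10 were called with the 6 pregnancy libraries alone. Over all genes the median was -0.13. The fit to 18 libraries called 7.48% of all genes higher, and the fit to 6 called 10.1%. The part of fibroblast RNA in the matrix differences was not tested.

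Integrins, the receptors of that matrix, were mostly higher. Of 18 genes for integrins and hemidesmosomes 11 were called higher and 1 lower (median 1.17), and Ilk lay below the value filter. Col17a1, the transmembrane collagen of hemidesmosomes, had 12801 and 13159 in basal and 1126 and 950 in ER+ luminal cells (3.65 ± 0.39, adjusted p = 6.23e-05). Itgb3 had 2289 and 2332 in basal and 228 and 181 in ER+ luminal cells (3.5 ± 0.33, adjusted p = 7.57e-06). Itga3 was higher by 1.93 ± 0.17 (adjusted p = 5.16e-06), Itga6, a marker used to sort basal cells, by 1.23 ± 0.17 (adjusted p = 0.000222), Itgb1 by 0.86 ± 0.13 (adjusted p = 0.00037) and the laminin receptor dystroglycan (Dag1) by 1.54 ± 0.14 (adjusted p = 5.16e-06). The partner of Itga6 in hemidesmosomes went the other way: Itgb4 had 1759 and 1550 in basal and 2617 and 2823 in ER+ luminal cells (-0.72 ± 0.19, adjusted p = 0.0176). The libraries did not overlap, but the Itgb4 call was lost without any 1 of them (adjusted p = 0.0667, 0.134, 0.0556 and 0.102). Plectin (Plec), which anchors keratins to that complex, was higher by 0.79 ± 0.17 (adjusted p = 0.00653; 0.0847 without basal replicate 1 and 0.0748 without ER+ luminal replicate 2). The list held 7 higher genes and 0 lower without basal replicate 1.

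The receptor genes Esr1, Pgr and Prlr were lower in basal cells, and Igf1r was higher. Of 15 receptor genes 3 were called lower and 2 higher (median 0.15), against 8.04% lower and 7.48% higher over all genes. Esr2, the second estrogen receptor, lay below the filter at 4 and 20 in basal and 4 and 4 in ER+ luminal cells. Esr1 was lower by -2.88 ± 0.62 (adjusted p = 0.0118). The progesterone receptor gene Pgr (chr9:8899833-8968611) had 965 and 951 in basal and 8900 and 3694 in ER+ luminal cells (-2.58 ± 0.68, adjusted p = 0.0328). The prolactin receptor gene Prlr (chr15:10177238-10349180) had 1357 and 2087 in basal and 39380 and 15215 in ER+ luminal cells (-3.86 ± 0.75, adjusted p = 0.00756). ER+ luminal replicate 1 was the higher library for each of these, and both replicates lay above the basal libraries. The IGF1 receptor gene Igf1r had 4179 and 3918 in basal and 1285 and 1250 in ER+ luminal cells (1.67 ± 0.22, adjusted p = 0.000152). The glucocorticoid receptor gene Nr3c1 (3705 and 3908 in basal, 1924 and 3714 in ER+ luminal cells), the growth hormone receptor gene Ghr (1285 and 1514 in basal, 880 and 1111 in ER+ luminal cells) and the vitamin D receptor gene Vdr (2434 and 3166 in basal, 2165 and 5109 in ER+ luminal cells) were not called. Without basal replicate 1 the adjusted p was 0.0972 for Esr1, 0.0698 for Prlr and 0.148 for Pgr, and the list held 1 higher gene and 0 lower. Without ER+ luminal replicate 1 it was 0.0915 for Esr1, 0.0646 for Prlr and 0.2 for Pgr. Pgr also missed the threshold without basal replicate 2 (0.125).

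Transcription factors linked to the ER+ luminal state followed the receptors, with 8 of 12 called lower in basal cells and 1 higher (median -1.34). Foxa1, the pioneer factor that opens sites for the estrogen receptor (chr12:57540628-57546916), had 330 and 368 in basal and 7646 and 3239 in ER+ luminal cells (-3.83 ± 0.72, adjusted p = 0.00619). Cited1, a coactivator of that receptor, had 195 and 179 in basal and 4026 and 1621 in ER+ luminal cells (-3.77 ± 0.44, adjusted p = 0.00012). Myb had 215 and 176 in basal and 3926 and 1408 in ER+ luminal cells (-3.59 ± 0.56, adjusted p = 0.00139). The homeobox gene Msx2 was lower by -4.03 ± 0.86 (adjusted p = 0.00759), Spdef by -2.28 ± 0.64 (adjusted p = 0.0293), Tbx3 by -1.43 ± 0.36 (adjusted p = 0.0176), Gata3, needed for luminal differentiation, by -1.26 ± 0.22 (adjusted p = 0.00136) and Xbp1, a regulator of secretory capacity, by -1.12 ± 0.2 (adjusted p = 0.00136). In each the basal libraries were the low ones. Tfap2c, an AP-2 factor, was the member that was higher, with 4746 and 4209 in basal and 1064 and 1760 in ER+ luminal cells (1.71 ± 0.24, adjusted p = 0.000212). Grhl2 had 1703 and 1795 in basal and 1912 and 1925 in ER+ luminal cells and was not called. Without basal replicate 1 or ER+ luminal replicate 1, 4 members were called lower: Foxa1 (adjusted p = 0.0537 and 0.0539), Msx2 (0.0984 and 0.0672), Tbx3 (0.0889 and 0.153) and Spdef (0.146 and 0.179) missed the threshold in both cases. Tbx3 and Spdef also missed it without basal replicate 2 (0.101 and 0.121), and Spdef without ER+ luminal replicate 2 (0.06).

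The ligand genes Wnt4, Areg and Igf2 were lower in basal cells, while Fst, Adamts18 and Cxcl12 were higher. Of 12 paracrine genes 3 were called higher and 3 lower (median -0.36), against 7.48% higher and 8.04% lower over all genes. With the 6 pregnancy libraries alone 3 were called higher and 5 lower. Wnt4, the WNT ligand induced by progesterone (chr4:137277489-137299726), had 257 and 388 in basal and 7596 and 3578 in ER+ luminal cells (-4.04 ± 0.64, adjusted p = 0.00206). Areg, which encodes amphiregulin, the EGF receptor ligand induced by estrogen (chr5:91139599-91148432), had 234 and 338 in basal and 7671 and 2790 in ER+ luminal cells (-4.04 ± 0.79, adjusted p = 0.00752). Igf2 had 844 and 395 in basal and 34700 and 12642 in ER+ luminal cells (-5.18 ± 1.47, adjusted p = 0.0442). All 3 were low in both basal libraries, and ER+ luminal replicate 1 was the highest library in each. For Tnfsf11, the values given above amount to -5.6 ± 2.13 (adjusted p = 0.12, and 6.14e-08 with the 6 pregnancy libraries). Calca, which encodes calcitonin and CGRP, had 310 and 461 in basal and 28214 and 14970 in ER+ luminal cells (-5.76 ± 1.94, adjusted p = 0.0805, and 4.05e-07 with 6 libraries). The RANKL receptor gene Tnfrsf11a had 2118 and 2497 in basal and 733 and 1780 in ER+ luminal cells and was not called (1.01 ± 0.33, adjusted p = 0.0598). Rspo1, another progesterone-induced ligand, overlapped at 1058 and 1689 in basal and 1260 and 3414 in ER+ luminal cells. Among the genes higher in basal cells, follistatin (Fst), an activin antagonist, had 2895 and 2706 in basal and 262 and 201 in ER+ luminal cells (3.6 ± 0.34, adjusted p = 7.21e-06). Adamts18, a matrix protease gene, had 8872 and 8063 in basal and 821 and 495 in ER+ luminal cells (3.73 ± 0.94, adjusted p = 0.0249), and the chemokine gene Cxcl12 was higher by 2.52 ± 0.63 (adjusted p = 0.0228). Igf2 and Adamts18 lost their calls without any 1 library (adjusted p of Igf2 0.131, 0.19, 0.208 and 0.0953, of Adamts18 0.131, 0.0952, 0.0713 and 0.135). Cxcl12 lost its call without basal replicate 1 (0.125), basal replicate 2 (0.0905) or ER+ luminal replicate 2 (0.156), and Areg without basal replicate 1 (0.0695) or ER+ luminal replicate 1 (0.0627).

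ERBB receptors were divided between the layers. Of 14 genes for EGF family ligands and receptors 4 were called higher and 6 lower (median -0.95). Egfr, the receptor of amphiregulin, had 7591 and 7742 in basal and 2127 and 2241 in ER+ luminal cells (1.81 ± 0.23, adjusted p = 7.93e-05). The other receptors were lower. Erbb2 had 919 and 1037 in basal and 4497 and 3323 in ER+ luminal cells (-1.98 ± 0.22, adjusted p = 2.67e-05), and Erbb3 had 1446 and 2444 in basal and 7724 and 7530 in ER+ luminal cells (-2.02 ± 0.24, adjusted p = 7.98e-05). Erbb4 had 267 and 398 in basal and 7643 and 3920 in ER+ luminal cells (-4.07 ± 0.39, adjusted p = 1.18e-05). None of the 4 receptors overlapped between groups. Ligands of ERBB3 and ERBB4, the neuregulins, were higher in basal cells: Nrg1 had 6221 and 4484 in basal and 593 and 262 in ER+ luminal cells (3.74 ± 0.58, adjusted p = 0.00129), and Nrg2 had 580 and 461 in basal and 54 and 39 in ER+ luminal cells (3.47 ± 0.51, adjusted p = 0.000359). Epiregulin (Ereg) was higher by 4.36 ± 1.15 (adjusted p = 0.0231), and betacellulin (Btc) and Tgfa, ligands of the EGF receptor, were lower by -2.01 ± 0.27 and -1.17 ± 0.37 (adjusted p = 0.000144 and 0.0479). Ereg lost its call without any 1 library (adjusted p = 0.151, 0.076, 0.0742 and 0.132), and Tgfa without basal replicate 1 (0.172), basal replicate 2 (0.194) or ER+ luminal replicate 1 (0.446).

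In the insulin-like growth factor axis 6 of 12 genes were called higher and 1, Igf2, lower (median 1.25). The binding proteins, which hold IGFs in the extracellular space, made up most of this. Igfbp2 had 6504 and 5242 in basal and 337 and 262 in ER+ luminal cells (4.29 ± 0.74, adjusted p = 0.00183; chr1:72824503-72852474). Igfbp3 had 6284 and 5265 in basal and 793 and 404 in ER+ luminal cells (3.34 ± 0.42, adjusted p = 0.000181), and Igfbp4 was higher by 2.42 ± 0.3 (adjusted p = 8.26e-05). Igfbp5 had 102958 and 103009 in basal and 44210 and 39455 in ER+ luminal cells (1.3 ± 0.28, adjusted p = 0.00824). The ligand gene Igf1 had 1117 and 1216 in basal and 621 and 375 in ER+ luminal cells (1.27 ± 0.31, adjusted p = 0.0122). The ligand genes Igf1 and Igf2 were thus called in opposite directions, with Igf1r on the side of Igf1. Igf2r, the receptor that clears IGF2, had 3616 and 3444 in basal and 4908 and 3904 in ER+ luminal cells and was not called. The adjusted p of Igfbp5 and Igf1 without basal replicate 1 was 0.0618 and 0.0744, and without ER+ luminal replicate 2 it was 0.0661 and 0.145. Igf1 also missed the threshold without basal replicate 2 (0.0861).

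WNT pathway genes were higher in basal cells in 14 of 35 cases and lower in 2 (median 0.92), and 17 were called higher with the 6 pregnancy libraries. Ligand genes were Wnt6, with 679 and 686 in basal and 41 and 36 in ER+ luminal cells (4.12 ± 1.15, adjusted p = 0.0299), Wnt10a, with 234 and 202 in basal and 32 and 7 in ER+ luminal cells (3.75 ± 0.98, adjusted p = 0.0191), and Wnt5a (1.84 ± 0.37, adjusted p = 0.00507). Among receptors, Fzd7 had 9850 and 8875 in basal and 1656 and 1686 in ER+ luminal cells (2.48 ± 0.19, adjusted p = 1.63e-06). Fzd1 (1.76 ± 0.2) and Fzd3 (1.35 ± 0.18) were higher, whereas Fzd6 had 952 and 931 in basal and 1719 and 1570 in ER+ luminal cells and was lower (-0.8 ± 0.16, adjusted p = 0.00362). R-spondin receptors include Lgr5, with 896 and 779 in basal and 163 and 88 in ER+ luminal cells (2.79 ± 0.46, adjusted p = 0.00117), and Lgr6, with 9135 and 7083 in basal and 1853 and 2574 in ER+ luminal cells (1.88 ± 0.35, adjusted p = 0.00385). Lgr4 had 5503 and 5279 in basal and 2271 and 5144 in ER+ luminal cells and was not called. Targets and feedback inhibitors of the pathway were higher too, with Axin2 at 425 and 365 in basal and 107 and 107 in ER+ luminal cells (1.87 ± 0.4, adjusted p = 0.00566), Tcf7 (2.15 ± 0.33, adjusted p = 0.000474) and Nkd2 (2.58 ± 0.5, adjusted p = 0.00288). Wif1, a secreted WNT inhibitor, had 3758 and 3295 in basal and 256 and 181 in ER+ luminal cells (4.02 ± 0.97, adjusted p = 0.0187). Wnt4 and Fzd6 were the 2 genes lower in basal cells. Without basal replicate 1 the list had 6 higher and 2 lower genes, with adjusted p-values of 0.0505 for Lgr6, 0.0558 for Wnt5a, 0.0713 for Axin2, 0.11 for Wif1, 0.132 for Wnt10a and 0.143 for Wnt6. Without basal replicate 2 there were 9 higher genes, and Wif1, Wnt10a and Wnt6 had 0.075, 0.0884 and 0.119. Without ER+ luminal replicate 1 Wif1 and Wnt6 missed the threshold (0.0671 and 0.11), and without ER+ luminal replicate 2 Wif1, Wnt6, Wnt10a (0.105, 0.128 and 0.183) and Wnt5a (0.057).

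In the Notch pathway the ligand gene Jag2 and the target gene Hey1 were higher in basal cells, and the receptor gene Notch3 and the target gene Hes1 were lower. These were the 4 called genes of 16 (median 0.40, against 7.48% higher and 8.04% lower over all genes), and 0 were called without basal replicate 1. The ligand gene Jag2 had 6294 and 5428 in basal and 580 and 385 in ER+ luminal cells (3.63 ± 1.01, adjusted p = 0.0399). Dll1, a ligand gene known from basal stem cells, had 3979 and 4143 in basal and 347 and 327 in ER+ luminal cells and was not called (3.59 ± 1.35, adjusted p = 0.117, and 9.84e-08 with the 6 pregnancy libraries). Among receptors, Notch3 had 2292 and 2669 in basal and 5189 and 4547 in ER+ luminal cells (-0.97 ± 0.23, adjusted p = 0.00989), and Notch1 had 3883 and 4143 in basal and 4665 and 8280 in ER+ luminal cells and was not called (-0.63 ± 0.21, adjusted p = 0.0589). The target genes differed from each other: Hes1 was lower (-0.67 ± 0.21, adjusted p = 0.0498) and Hey1 was higher, with 320 and 269 in basal and 131 and 65 in ER+ luminal cells (1.66 ± 0.33, adjusted p = 0.0034). Every one of these calls depended on single libraries. Jag2 and Hes1 lost theirs without any 1 library (adjusted p of Jag2 0.181, 0.128, 0.109 and 0.172, of Hes1 0.186, 0.194, 0.0713 and 0.271). Notch3 lost it without basal replicate 1 (0.114) or ER+ luminal replicate 1 (0.0797), and Hey1 without basal replicate 1 (0.0505) or ER+ luminal replicate 2 (0.0518).

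Fibroblast growth factor genes were higher in 7 of 15 cases and lower in 0 (median 1.23). Fgf1 had 1920 and 1941 in basal and 315 and 262 in ER+ luminal cells (2.74 ± 0.23, adjusted p = 3.52e-06), and Fgf2 had 155 and 159 in basal and 47 and 42 in ER+ luminal cells (1.8 ± 0.46, adjusted p = 0.0163). Genes that FGF signalling is known to induce were higher as well: Etv5 had 5737 and 4967 in basal and 802 and 472 in ER+ luminal cells (3.11 ± 0.49, adjusted p = 0.00137), Dusp6 had 14141 and 11603 in basal and 3396 and 4586 in ER+ luminal cells (1.7 ± 0.18, adjusted p = 1.7e-05) and Spry1 was higher by 1.73 ± 0.26 (adjusted p = 0.00044). The receptor genes were not called in this fit: Fgfr1 had 7561 and 7550 in basal and 5607 and 3355 in ER+ luminal cells, and Fgfr2 had 4229 and 3457 in basal and 4123 and 1618 in ER+ luminal cells. Fgf2 lost its call without any 1 library (adjusted p = 0.102, 0.088, 0.0609 and 0.0865).

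TGF-β and BMP genes were called higher in 4 of 24 cases and lower in 1 (median 0.41), against 7.48% higher and 8.04% lower over all genes. Tgfbr3, the coreceptor betaglycan, had 17793 and 14924 in basal and 2663 and 2148 in ER+ luminal cells (2.77 ± 0.17, adjusted p = 4.31e-07). Bmp7 had 3050 and 2504 in basal and 303 and 227 in ER+ luminal cells (3.39 ± 0.49, adjusted p = 0.000395), and the TGF-β binding protein gene Ltbp2 was higher by 2.2 ± 0.35 (adjusted p = 0.00114). The fourth was Fst. Bmpr1b, a BMP receptor gene, had 86 and 63 in basal and 2950 and 1014 in ER+ luminal cells (-4.54 ± 0.5, adjusted p = 2.67e-05), while the related receptor gene Bmpr1a had 5704 and 5338 in basal and 5607 and 5241 in ER+ luminal cells and was not called. The ligand genes Tgfb1, Tgfb2 and Tgfb3 were not called either, at -0.56 ± 0.29, -0.23 ± 0.41 and -0.09 ± 0.24; the sign for Tgfb3 turned under median-ratio and TMM scaling. With 1 library left out, 4 or 5 genes of this list were called higher and 1 lower.

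Axon guidance genes, which also serve as adhesion and boundary cues in epithelia, had 20 of 30 called higher and 0 lower (median 1.51). Semaphorin genes were Sema5a, with 7123 and 6981 in basal and 793 and 524 in ER+ luminal cells (3.45 ± 0.32, adjusted p = 7.57e-06), and Sema3b (3.28 ± 0.42, adjusted p = 9.9e-05). SLIT ligands and their ROBO receptors were higher together: Slit3 had 4120 and 3643 in basal and 1070 and 556 in ER+ luminal cells (2.33 ± 0.34, adjusted p = 0.00039), Slit2 was higher by 1.84 ± 0.37 (adjusted p = 0.00335), and Robo2 had 1002 and 795 in basal and 138 and 68 in ER+ luminal cells (3.19 ± 0.66, adjusted p = 0.0046). Robo1 was higher by 1.25 ± 0.28 (adjusted p = 0.00824). Eph receptors and ephrins include Ephb1, with 732 and 616 in basal and 60 and 55 in ER+ luminal cells (3.52 ± 1.01, adjusted p = 0.0331), Epha7, with 1091 and 1000 in basal and 181 and 288 in ER+ luminal cells (2.19 ± 0.24, adjusted p = 2.33e-05), and Efnb2 (1.89 ± 0.31, adjusted p = 0.000817). The netrin gene Ntn4 was higher by 2.5 ± 0.58 (adjusted p = 0.0145), and Ntn1, with 409 and 484 in basal and 796 and 963 in ER+ luminal cells, was not called (-0.98 ± 0.39). Both basal libraries were above both ER+ luminal libraries for all 20, as in 26% of all genes. These 20 were picked as called higher, so this separation adds no support. The list had 9 higher genes without basal replicate 1, 16 without basal replicate 2, 15 without ER+ luminal replicate 1 and 13 without ER+ luminal replicate 2. Ephb1 and Ntn4 lost their calls in each case (adjusted p of Ephb1 0.172, 0.114, 0.121 and 0.135, of Ntn4 0.0847, 0.0794, 0.0593 and 0.0928). Robo2 lost it without basal replicate 1 (0.0618) or ER+ luminal replicate 2 (0.0565), Slit2 without basal replicate 1 (0.0618) and Robo1 in the same 2 cases as Robo2 (0.0903 and 0.123).

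**Figure D4:**
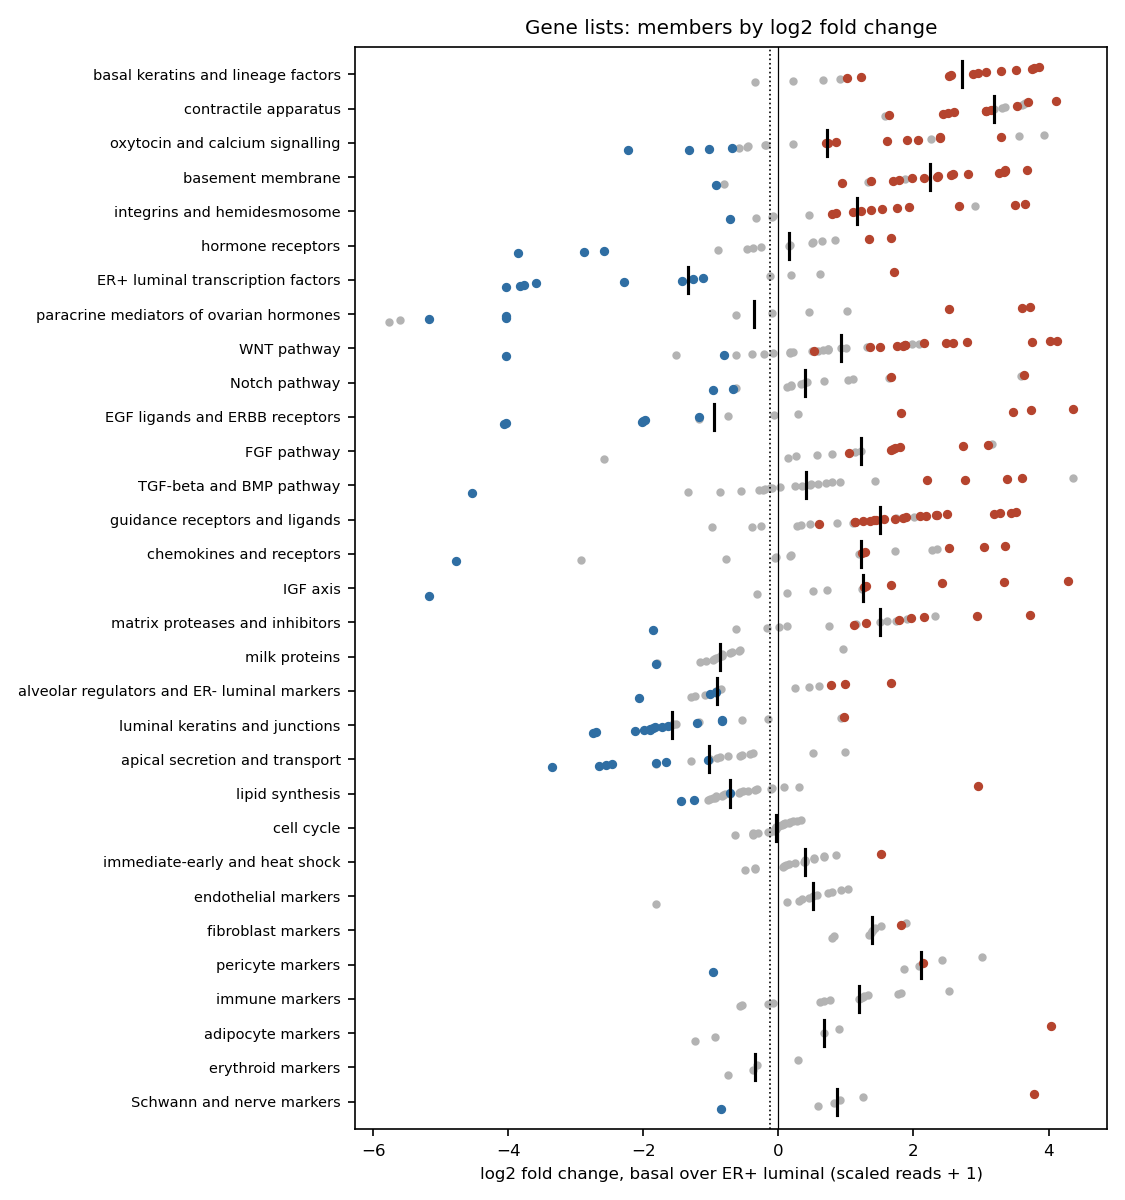
Log2 fold change, basal over ER+ luminal cells, of the members of each gene list, 1 point per gene: red called higher, blue called lower, grey not called, black bar the list's median, dotted line the median of all genes (-0.13). Contractile, basement membrane and guidance lists lie mostly above 0, ER+ luminal factors and luminal junctions mostly below 0, and cell cycle genes around 0.

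Chemokine genes were called higher in 5 of 16 cases and lower in 1 (median 1.22), against 7.48% higher and 8.04% lower over all genes. Cxcl14 had 6455 and 5391 in basal and 755 and 433 in ER+ luminal cells (3.36 ± 0.6, adjusted p = 0.00373). Ackr3, a scavenger receptor for CXCL12, had 3168 and 3073 in basal and 390 and 362 in ER+ luminal cells (3.05 ± 0.29, adjusted p = 7.57e-06), and the signalling receptor gene Cxcr4 had 880 and 1044 in basal and 325 and 475 in ER+ luminal cells (1.28 ± 0.35, adjusted p = 0.0224). Ligand and both receptors of this axis were therefore called on the basal side, but the call of Cxcl12 depended on single libraries, as given above. Cx3cl1 was higher by 1.24 ± 0.21 (adjusted p = 0.00111). Cxcl15 was lower, with 14 and 10 in basal and 421 and 291 in ER+ luminal cells (-4.77 ± 0.84, adjusted p = 0.00251). Cxcr4 lost its call without basal replicate 1 (adjusted p = 0.0911), basal replicate 2 (0.141) or ER+ luminal replicate 1 (0.176), and 3 genes were called higher without either basal library.

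Matrix protease genes and their inhibitors were called higher in 7 of 19 cases and lower in 1 (median 1.5), against 7.48% higher and 8.04% lower over all genes. Beside Adamts18, the serine protease gene Htra1 had 4245 and 4302 in basal and 708 and 436 in ER+ luminal cells (2.94 ± 0.37, adjusted p = 9.09e-05), and urokinase (Plau) was higher by 1.97 ± 0.3 (adjusted p = 0.000497). The inhibitor gene Timp3 had 3534 and 3504 in basal and 1005 and 614 in ER+ luminal cells (2.16 ± 0.49, adjusted p = 0.0135), and Timp2 was higher by 1.3 ± 0.2 (adjusted p = 0.000461). Maspin (Serpinb5), a myoepithelial serpin, had 1871 and 1739 in basal and 942 and 730 in ER+ luminal cells (1.12 ± 0.21, adjusted p = 0.00226). The membrane-bound metalloprotease gene Mmp15 was lower, with 1054 and 1342 in basal and 4955 and 3740 in ER+ luminal cells (-1.85 ± 0.25, adjusted p = 0.000155). Mmp2, which fibroblasts also make, had 8480 and 8755 in basal and 2211 and 1341 in ER+ luminal cells and was not called (2.32 ± 0.84, adjusted p = 0.102). Timp3 lost its call without basal replicate 1 (adjusted p = 0.0877), basal replicate 2 (0.0671) or ER+ luminal replicate 2 (0.107), and each of these 3 omissions left 4 higher genes.

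Luminal keratins and junction genes were lower in basal cells, with 13 of 21 called lower and 1 higher (median -1.58). Krt18 had 4397 and 6560 in basal and 21101 and 19042 in ER+ luminal cells (-1.9 ± 0.39, adjusted p = 0.0085; chr15:102028180-102032027). Its partner Krt8 had 8513 and 10590 in basal and 21232 and 22778 in ER+ luminal cells (-1.21 ± 0.28, adjusted p = 0.0124; chr15:101996698-102004482). Krt7 had 323 and 431 in basal and 3720 and 1692 in ER+ luminal cells (-2.75 ± 0.57, adjusted p = 0.00901), and Krt19 was lower by -1.85 ± 0.35 (adjusted p = 0.00487). The basal libraries were low in all 4 keratins, at levels that were not near 0. Tight junction genes included Cldn8, with 389 and 663 in basal and 3505 and 3139 in ER+ luminal cells (-2.7 ± 0.48, adjusted p = 0.00244), Cldn7 (-1.73 ± 0.41, adjusted p = 0.0162), occludin (Ocln, -1.83 ± 0.3, adjusted p = 0.000946) and Marveld3 (-2.12 ± 0.35, adjusted p = 0.00087). Crb3, which sets the apical pole, was lower by -1.99 ± 0.35 (adjusted p = 0.00133). Epcam, an adhesion protein used to sort luminal cells, had 5717 and 6825 in basal and 20646 and 18209 in ER+ luminal cells (-1.63 ± 0.29, adjusted p = 0.00263). E-cadherin (Cdh1) was lower by -0.83 ± 0.23 (adjusted p = 0.029). The desmosome gene Pkp3 was the one that was higher, with 2842 and 2626 in basal and 1335 and 1447 in ER+ luminal cells (0.97 ± 0.17, adjusted p = 0.00117). The number called lower was 6 without basal replicate 1 and 8 without ER+ luminal replicate 1. Without basal replicate 1 the adjusted p was 0.0597 for Krt19, 0.084 for Krt7, 0.0903 for Krt18, 0.118 for Krt8, 0.124 for Cldn7 and 0.172 for Cdh1. Without ER+ luminal replicate 1 it was 0.0588 for Krt8, 0.0593 for Krt18, 0.0755 for Krt7, 0.0806 for Cldn7 and 0.105 for Cdh1. Cldn7 and Cdh1 also missed the threshold without basal replicate 2 (0.0559 and 0.0971) and without ER+ luminal replicate 2 (0.0802 and 0.135), and Krt8 without ER+ luminal replicate 2 (0.0808).

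Milk protein transcripts were abundant in the libraries of both groups. Csn2 (chr5:87692624-87699630) had 97320 and 132154 in basal and 113910 and 249723 in ER+ luminal cells (-0.57 ± 1.83, adjusted p = 0.909). With an error of 1.83 log2 units, differences of Csn2 well beyond that size could also go uncalled. The lack of a call hence does not mean equal levels. Csn1s1 had 91367 and 135578 in basal and 111865 and 284896 in ER+ luminal cells, and Wap, a whey protein, had 2289 and 1242 in basal and 2504 and 3830 in ER+ luminal cells. Values of Csn2 and Csn1s1 overlapped between groups. Of 16 milk protein genes 1, the membrane mucin gene Muc1, was called lower, with 715 and 1103 in basal and 3003 and 3291 in ER+ luminal cells (-1.82 ± 0.34, adjusted p = 0.00312), and 0 were higher (median -0.86). Over all genes 8.04% were called lower and 7.48% higher. The groups did not overlap in 8 milk genes that were lower in value in basal cells and in 1 with higher values, against 37.5% and 26% of all genes. With the 6 pregnancy libraries 3 were called lower and 1 higher. Muc1 missed the threshold without basal replicate 1 (adjusted p = 0.0505), and 2 milk genes were called lower without ER+ luminal replicate 1. The summed milk transcripts were 325454 and 452961 in basal and 379584 and 908141 in ER+ luminal libraries, with 907360 and 163767 in the ER- luminal libraries of the same stage. The part of ER- luminal cells in the milk transcripts of the compared groups was not tested.

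Alveolar regulators had 3 of 16 called higher and 3 lower (median -0.90), against 7.48% higher and 8.04% lower over all genes. Elf5 (chr2:103411688-103450989), with 3070 and 4702 in basal and 4329 and 11434 in ER+ luminal cells, overlapped and was not called (-0.89 ± 0.68, adjusted p = 0.475). Stat5a and Stat5b, the transcription factors that carry the prolactin signal, were lower: Stat5a had 2711 and 3030 in basal and 4650 and 7269 in ER+ luminal cells (-1.02 ± 0.26, adjusted p = 0.0167), and Stat5b was lower by -0.92 ± 0.22 (adjusted p = 0.0105). Socs2, an inhibitor that STAT5 induces, had 1219 and 1169 in basal and 6860 and 3636 in ER+ luminal cells (-2.06 ± 0.46, adjusted p = 0.0102). Lcn2 and Lmo4 were higher by 0.99 ± 0.3 and 0.78 ± 0.25 (adjusted p = 0.0468 and 0.0498), the third gene being Hey1. No gene of this list was called in either direction without basal replicate 1: the adjusted p was 0.0505 for Hey1, 0.0684 for Socs2, 0.132 for Stat5a, 0.143 for Stat5b, 0.188 for Lcn2 and 0.253 for Lmo4. Without basal replicate 2, Stat5a, Socs2, Lmo4 and Lcn2 had 0.0593, 0.0599, 0.127 and 0.162. Without ER+ luminal replicate 1, Socs2, Lcn2 and Lmo4 had 0.0907, 0.371 and 0.435, and without ER+ luminal replicate 2, Stat5b and Stat5a had 0.123 and 0.169.

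Apical secretion and transport genes were called lower in 7 of 20 cases and higher in 0 (median -1.02), against 8.04% lower and 7.48% higher over all genes. Prom1, a protein of apical membrane protrusions, had 119 and 113 in basal and 1918 and 753 in ER+ luminal cells (-3.36 ± 0.63, adjusted p = 0.00445). The water channel gene Aqp3 had 27 and 63 in basal and 247 and 285 in ER+ luminal cells (-2.65 ± 0.59, adjusted p = 0.00697), and Aqp5 was lower by -2.55 ± 0.75 (adjusted p = 0.0488). Mlph, a linker of secretory vesicles to myosin, had 373 and 537 in basal and 2626 and 2316 in ER+ luminal cells (-2.46 ± 0.59, adjusted p = 0.0203). In lipid synthesis 3 of 24 genes were called lower and 1 higher (median -0.72), against 8.04% lower and 7.48% higher over all genes. The number lower was 1 without basal replicate 1 or ER+ luminal replicate 2, 2 without basal replicate 2 and 4 without ER+ luminal replicate 1, with 1 higher each time. Vldlr, a lipoprotein receptor, had 4021 and 4454 in basal and 540 and 556 in ER+ luminal cells (2.95 ± 0.28, adjusted p = 7.15e-06), while Lpin1, a phosphatidate phosphatase, and Gpat4, a glycerol phosphate acyltransferase, were lower by -1.44 ± 0.35 and -1.25 ± 0.17 (adjusted p = 0.0158 and 0.000143). Fatty acid synthase (Fasn), with 10772 and 14831 in basal and 14584 and 39475 in ER+ luminal cells, overlapped and was not called. Leaving out 1 library gave 1 to 5 apical genes called lower (1 without basal replicate 1, 2 without ER+ luminal replicate 2, 3 without basal replicate 2, 5 without ER+ luminal replicate 1). Mlph and Aqp5 lost their calls in every case (adjusted p of Mlph 0.145, 0.0585, 0.103 and 0.0802, of Aqp5 0.245, 0.114, 0.232 and 0.0983). Aqp3 and Lpin1 lost theirs without basal replicate 1 (0.114 and 0.153) or ER+ luminal replicate 2 (0.0503 and 0.124).

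Of 26 cell cycle genes 0 were called in either direction, by this fit or by the fit to the 6 pregnancy libraries. Their median was -0.03. Among all genes these 2 fits called 7.48% and 10.1% higher, and 8.04% and 8.87% lower. Mki67 had 13861 and 12206 in basal and 11348 and 14912 in ER+ luminal cells (-0.00 ± 1.12), and Top2a had 5991 and 4530 in basal and 4759 and 5164 in ER+ luminal cells (0.07 ± 1.21). Both overlapped. With errors above 1 log2 unit, differences well beyond that size could also go uncalled, as for Acta2 above. Of 18 immediate-early and heat shock genes, whose transcripts rise within minutes of tissue handling, 1 was called higher and 0 lower (median 0.39). Over all genes 7.48% were called higher and 8.04% lower. The groups did not overlap in 11 of the 18 with higher values in basal cells and in 3 with lower ones, against 26% and 37.5% of all genes. The part of tissue handling in this was not tested. The called gene, Egr3, had 2302 and 2047 in basal and 693 and 821 in ER+ luminal cells (1.52 ± 0.31, adjusted p = 0.00403, and 0.0528 without basal replicate 1). Fos had 63537 and 65394 in basal and 39149 and 51926 in ER+ luminal cells and was not called (0.52 ± 0.31).

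The largest rises by log2 fold change, among called genes with separate libraries and a group mean above 110.5 scaled reads, were partly genes with few reads in ER+ luminal cells. Bves, a Popeye domain membrane protein (chr10:45335772-45372479), had 152 and 150 in basal and 7 and 0 in ER+ luminal cells (5.75 ± 1.29, adjusted p = 0.0077). Its 91 and 2 reads give a ratio of 47.3 (95% counting interval 12.7 to 396). Fcrl1, known as a B cell receptor-like gene, had a ratio of 44.2 (11.9 to 371) from 85 and 2 reads, Rbm46, an RNA-binding protein gene known from germ cells, of 38.5 (10.3 to 324) from 74 and 2, and Amer2, an APC-binding protein gene, of 27.7 (9.15 to 137) from 80 and 3. These intervals cover counting error only. Galnt14, which starts O-glycan chains, had 205 and 216 in basal and 7 and 7 in ER+ luminal cells (4.72 ± 1.08, adjusted p = 0.00865), and the sterol transporter gene Abcg5 had 251 and 183 in basal and 13 and 4 in ER+ luminal cells (4.69 ± 1.01, adjusted p = 0.00582). Tex36 (4.89 ± 1.29), the neuronal adhesion gene Lrfn5 (4.68 ± 1.09), Ereg and Dlk2 (4.33 ± 1.09), a relative of the Notch ligands, followed. At higher levels, Igfbp2 and podoplanin were in this group. Podoplanin (Pdpn), a surface mucin of myoepithelial and lymphatic cells (chr4:143267431-143299564), had 2958 and 2497 in basal and 206 and 104 in ER+ luminal cells (4.2 ± 0.71, adjusted p = 0.00178). Igfbp2 and Pdpn kept their calls without any 1 library. The others lost theirs in 2 to 4 of the 4 cases, with adjusted p-values up to 0.103 for Bves, 0.235 for Tex36, 0.145 for Fcrl1, 0.0696 for Galnt14, 0.0704 for Abcg5, 0.105 for Lrfn5, 0.122 for Rbm46, 0.0747 for Amer2, 0.151 for Ereg and 0.124 for Dlk2.

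The largest falls were led by Kl, which encodes klotho, a coreceptor for endocrine FGFs (chr5:150952607-150993817). It was at 0 and 0 in basal and 113 and 139 in ER+ luminal cells (adjusted p = 0.000918), at least 25.3-fold lower in basal cells when 3 reads over the group are taken as the limit. Unc5d, a netrin receptor gene, had 27 and 10 in basal and 2055 and 737 in ER+ luminal cells (-6.13 ± 1.31, adjusted p = 0.00536). The noncoding host gene Snhg11 had 122 and 222 in basal and 14955 and 8070 in ER+ luminal cells (-6.05 ± 0.61, adjusted p = 8.35e-05; chr2:158375638-158386145). Tmprss6, the membrane protease that cleaves hemojuvelin in liver (chr15:78439667-78468634), had 155 and 242 in basal and 8653 and 6571 in ER+ luminal cells (-5.28 ± 0.44, adjusted p = 3.24e-06). Kcnh2, the potassium channel known from the heart, had 17 and 20 in basal and 948 and 653 in ER+ luminal cells (-5.34 ± 0.54, adjusted p = 1.18e-05). Pnmt, which makes adrenaline from noradrenaline, had 20 and 34 in basal and 1011 and 1179 in ER+ luminal cells (-5.33 ± 1.08, adjusted p = 0.00383). Pkd1l1, a polycystin (-5.48 ± 0.82), Hif3a, a hypoxia-inducible factor (-5.38 ± 1.01), Rp1 (-5.67 ± 1.27), a symbol that the annotation gives to more than 1 gene ID, and the organic anion transporter gene Slco4c1 (-5.37 ± 1.46) were also among the 12. Slco1a6, of the same transporter family, and Sycp2l had 2 reads each in basal cells, and ER+ luminal over basal ratios of 44.7 (12 to 375) and 36.1 (9.64 to 303). Kl, Snhg11, Tmprss6, Kcnh2, Pkd1l1 and Slco1a6 kept their calls without any 1 library. The remaining 6 lost theirs in 1 to 4 cases, with adjusted p-values up to 0.0617 for Unc5d, 0.0539 for Pnmt, 0.0529 for Hif3a, 0.107 for Rp1, 0.144 for Slco4c1 and 0.21 for Sycp2l.

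Beside the fibroblast genes given above, markers of other cell types were mostly uncalled, as were most genes. Over all genes 7.48% were called higher and 8.04% lower. These shares were 10.1% and 8.87% with the 6 pregnancy libraries, and 10.2% and 7.54% with edgeR. Over 6 endothelial markers the sums were 4261 and 3570 in basal and 3666 and 2309 in ER+ luminal libraries. The longer list of 11 endothelial genes summed to 7794 and 6459 in basal and 11102 and 6583 in ER+ luminal libraries. Of these 11 genes 0 were called. Pericyte markers, which share genes with myoepithelium, summed to 11710 and 11868 in basal and 8463 and 6148 in ER+ luminal libraries. Of 6 pericyte genes Pdgfrb was called higher (2.14 ± 0.4, adjusted p = 0.00284) and Notch3 lower, with its calls lost as given above. With the 6 pregnancy libraries 5 pericyte genes were called higher and 1 lower, and with edgeR 4 higher and 1 lower, and the part of this in the higher contractile genes was not tested. Over 7 immune markers the sums were 5166 and 9460 in basal and 2967 and 2689 in ER+ luminal libraries. Of 15 genes of the longer immune list 0 were called, and 6 were called higher with the 6 pregnancy libraries. Adipoq, the defining adipocyte gene, was at 0 in all 4 libraries, yet Lep, which encodes leptin, had 70 and 93 in basal and 4 and 4 in ER+ luminal cells (4.03 ± 0.96, adjusted p = 0.0113, with a counting ratio of 25.5 from 6.68 to 216). Lep lost its call without any 1 library (adjusted p = 0.0696, 0.0829, 0.0578 and 0.0568). Over 3 erythroid markers the sums were 322 and 256 in basal and 517 and 276 in ER+ luminal libraries. Of 4 genes of the longer erythroid list 0 were called. Among Schwann and nerve genes Ncam1, an adhesion molecule, had 1749 and 1742 in basal and 131 and 120 in ER+ luminal cells (3.79 ± 0.42, adjusted p = 2.74e-05). Mbp, a myelin gene, had 330 and 451 in basal and 618 and 779 in ER+ luminal cells (-0.85 ± 0.27, adjusted p = 0.0487, and 0.341, 0.064, 0.078 and 0.256 with 1 library left out). The part of these cells in the differences was not tested.

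The basal against ER+ luminal contrast of pregnancy was then compared with the same contrast at puberty. The difference between the contrasts was called positive, toward basal cells in pregnancy, in 101 genes (0.537%) and negative in 262 (1.39%), 363 in all (1.93%). The 4 groups share no library. Depth was higher at puberty, and puberty basal replicate 2 held more luminal transcript than replicate 1, with ER+ luminal markers at 17.4% and 4.16% of the puberty ER+ luminal mean. Slco2a1, a prostaglandin transporter (chr9:102988712-103096002), had 4430 and 4140 in basal and 923 and 646 in ER+ luminal cells in pregnancy, and 3206 and 6689 in basal and 22520 and 28014 in ER+ luminal cells at puberty (difference of the contrasts 4.91 ± 0.6, adjusted p = 0.00237). Fam84a had 501 and 570 in basal and 103 and 101 in ER+ luminal cells in pregnancy, and 668 and 757 in basal and 2737 and 3166 in ER+ luminal cells at puberty (4.43 ± 0.47, adjusted p = 0.000219). Padi2, which converts arginine to citrulline in proteins, had 185 and 186 in basal and 72 and 123 in ER+ luminal cells in pregnancy, and 317 and 1231 in basal and 5106 and 6621 in ER+ luminal cells at puberty (4.19 ± 0.67, adjusted p = 0.00818). By value, the ER+ luminal libraries of these genes were the high ones at puberty and the low ones in pregnancy. Sox9, a progenitor factor, showed the same pattern in smaller size, with 5303 and 7059 in basal and 21601 and 20594 in ER+ luminal cells at puberty (2.44 ± 0.33, adjusted p = 0.00173). The contrast of Sox9 within pregnancy was not called, as given above, and neither was that of Padi2.

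Differences in the negative direction were led by genes that ER+ luminal cells had in pregnancy and nearly lacked at puberty. Nalcn, a sodium leak channel, had 178 and 159 in basal and 1447 and 562 in ER+ luminal cells in pregnancy, and 479 and 408 in basal and 14 and 0 in ER+ luminal cells at puberty (-9.25 ± 1.25, adjusted p = 0.00237). Slpi, a secreted leukocyte protease inhibitor, had 504 and 315 in basal and 9642 and 4072 in ER+ luminal cells in pregnancy, and 2915 and 3606 in basal and 111 and 63 in ER+ luminal cells at puberty (-9.23 ± 1.27, adjusted p = 0.00688). Pappa, a protease that releases IGFs from their binding proteins, had 3086 and 2378 in basal and 3742 and 1877 in ER+ luminal cells in pregnancy, and 5327 and 5012 in basal and 92 and 13 in ER+ luminal cells at puberty (-7.13 ± 1.06, adjusted p = 0.00818). The group means thus stood in opposite order at the 2 stages for Nalcn, whose contrast within pregnancy was not called (adjusted p = 0.0907), and for Slpi, and the basal excess of Pappa at puberty was not seen in pregnancy (0.03 ± 0.75). Tmprss6 had only 15 and 19 in basal and 33 and 26 in ER+ luminal cells at puberty (-4.52 ± 0.62, adjusted p = 0.00179). Lower basal excess in pregnancy was called for Oxtr, with 49019 and 34268 in basal and 871 and 171 in ER+ luminal cells at puberty (-4.32 ± 0.81, adjusted p = 0.0261), and for Lamb3 (-2.27 ± 0.34, adjusted p = 0.00304). Negative differences were also called for Itpr2 and the thyroid hormone receptor gene Thrb, which showed no basal excess in pregnancy, at -2.42 ± 0.32 and -3.75 ± 0.49 (adjusted p = 0.00125 and 0.0012). Basal markers stood higher in the ER+ luminal libraries of pregnancy than in those of puberty, as given above, and the part of this in the lower basal excess was not tested. Counts of called differences were 100 without puberty basal replicate 1, 579 without puberty ER+ luminal replicate 1, 128 without puberty ER+ luminal replicate 2, 105 and 118 without pregnancy basal replicate 1 and 2, and 232 without pregnancy ER+ luminal replicate 2. Slco2a1, Fam84a, Padi2, Nalcn, Slpi, Pappa, Tmprss6, Sox9, Lamb3, Itpr2 and Thrb kept their calls without any 1 of the 8 libraries, whereas Oxtr lost its call in 5 of 8 cases (adjusted p up to 0.132).

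**Figure D5:**
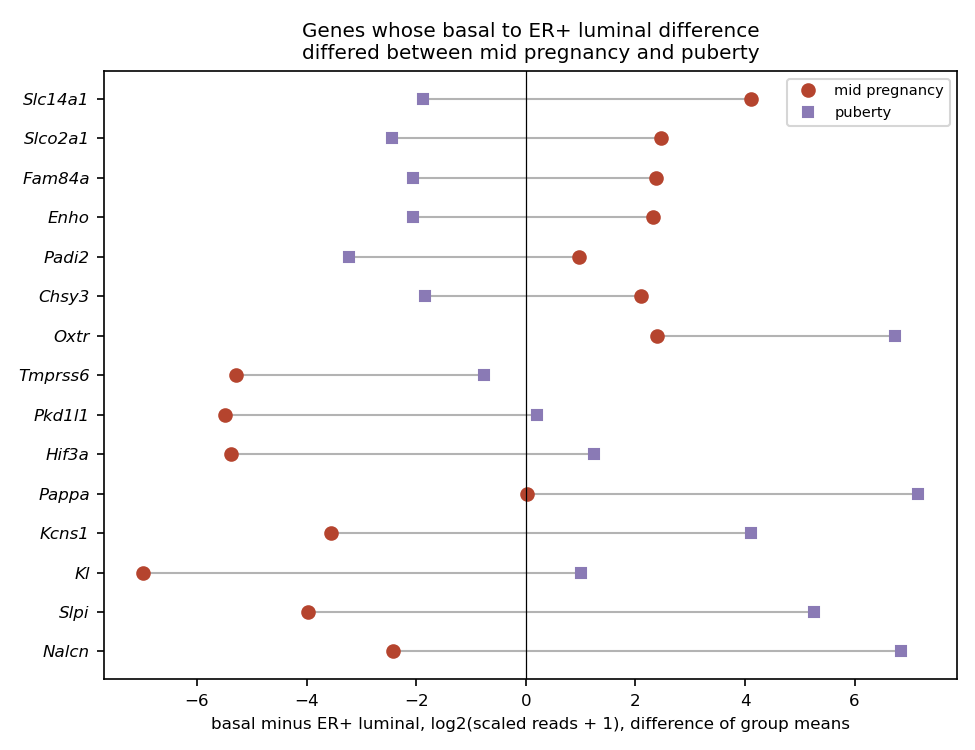
Basal minus ER+ luminal difference of group means, log2(scaled reads + 1), in mid pregnancy and at puberty for genes whose difference was called. Slco2a1, Fam84a and Padi2 lie right of 0 in pregnancy and left of 0 at puberty, and Nalcn and Slpi show the reverse. The contrasts of Padi2 and Nalcn within pregnancy were not called.

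Compared with adulthood, the difference between the contrasts was called positive in 375 genes (1.99%) and negative in 1376 (7.32%), 1751 in all (9.31%). The adult ER+ luminal libraries had 2558368 and 2405247 reads, fewer than those of pregnancy, and adult luminal libraries stood apart in depth from the rest of the series. Stage can thus not be told apart here from depth or from any unlabelled batch. Values are therefore given with that limit for few genes. Erbb4 had 578 and 586 in basal and 225 and 215 in ER+ luminal cells in adulthood, the opposite direction to pregnancy (difference -5.47, adjusted p = 7.4e-05). Slco2a1 had 4449 and 7979 in basal and 9354 and 12544 in ER+ luminal cells in adulthood (difference 3.33, adjusted p = 0.00653), and Padi2 had 337 and 385 in basal and 2079 and 2268 in ER+ luminal cells (difference 3.56, adjusted p = 0.00653), both in the direction seen at puberty. Esr1, Pgr, Prlr and Foxa1 had log2 contrasts of -3.27, -3.71, -3.94 and -4.22 in adulthood, and their difference from pregnancy was not called. Without 1 library the count of called differences lay between 802 and 1737: it was 1074 without adult basal replicate 2, 802 and 906 without pregnancy basal replicate 1 and 2, and 963 without pregnancy ER+ luminal replicate 2.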

How the data were processed

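RNA was sequenced from 18 libraries of sorted mouse mammary cells, 2 libraries in each of 9 groups (RNeasy micro kit and Ovation Solo kit, per the labels' protocols). Per the submitters' processing notes, STAR, Picard and HTSeq were used with GRCm38/mm10, without versions, settings or use of strand. Reads of overlapping, antisense or near-identical genes may therefore be split or shared. The authors deposited a signal table, in which reads per gene are scaled to a library total of about 20000000 and rounded to whole numbers. Of its 46868 rows 179 IDs were repeated, 75 ambiguous IDs were left out and 46182 were kept, of which 45786 were found in GENCODE vM21, the source of names and coordinates (GRCm38, counted from 1).

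From these values log2(value + 1) was taken and genes with a value of 10 or more in at least 2 of 18 libraries were tested with limma 3.58.1 (trend and robust empirical Bayes, R 4.3.3) on 9 group means with 9 residual degrees of freedom. Because a pseudocount of 1 is added, fold changes of low genes are understated. The spread of each gene is thus shared by all groups, adult luminal libraries included. The same model gave the differences from puberty and adulthood. Dividing by the value of 1 read returned whole reads (99.8% of values or more), on which edgeR 4.0.16 (quasi-likelihood) and DESeq2 1.42.0 were run as alternatives. Tables were handled with Python 3.11.15, pandas 2.3.3 and numpy 2.4.6, and figures were drawn with matplotlib 3.10.9. The code was tested on simulated data. Other alternatives were the pseudocount, the filter, TMM, median-ratio and quantile scaling, sample weights, fewer libraries, a replicate block and each library left out in turn. Intervals of ratios of reads and the limit of 3 reads for a group at 0 cover counting error only.

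Named genes are a panel of 16 genes, the 12 largest rises and 12 largest falls among called genes with separate libraries and a group mean above 110.5, up to 6 called members per list with members of known role, and the 6 largest differences from puberty in each direction, leaving out predicted, immunoglobulin, mitochondrial and ribosomal protein genes and pseudogenes. The members, the 31 lists and the named genes were chosen with earlier results of these data known.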

Additional observations from a re-analysis of the deposited data

Results flagged for a closer look

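The basal against ER+ luminal contrast was called different between mid pregnancy and puberty in 363 genes, and between mid pregnancy and adulthood in 1751 genes. Both counts come from a test of the difference itself in limma with Benjamini-Hochberg adjustment. The adult luminal libraries stood apart in depth, so for the second count stage cannot be told apart from depth or from any unlabelled batch.

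Among the named genes, the differences from puberty toward basal cells were 5.98 for Slc14a1 (adjusted p = 0.0457), 4.91 for Slco2a1 (0.00237), 4.43 for Fam84a (0.000219), 4.37 for Enho (0.0122), 4.19 for Padi2 (0.00818) and 3.95 for Chsy3 (0.0459) on the log2 scale. Those toward ER+ luminal cells were -9.25 for Nalcn (adjusted p = 0.00237), -9.23 for Slpi (0.00688), -7.98 for Kl (0.0217), -7.65 for Kcns1 (0.0123), -7.13 for Pappa (0.00818), -6.63 for Hif3a (0.0365), -5.68 for Pkd1l1 (0.0206), -4.52 for Tmprss6 (0.00179) and -4.32 for Oxtr (0.0261). Kl was at 0 in both basal libraries of pregnancy, so its fitted difference depends on the pseudocount and is no bound. With 1 of the 8 libraries left out the call was lost for Slc14a1 (adjusted p up to 0.218), Chsy3 (0.218), Hif3a (0.174), Oxtr (0.132), Pkd1l1 (0.105), Kl (0.0929), Enho (0.0805) and Kcns1 (0.0763), each in at least 3 of 8 cases.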

How the results depend on the processing

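The count of 2918 genes called between basal and ER+ luminal cells lay between 2150 and 4180 under the other settings with all compared libraries, and between 1049 and 1853 with 1 compared library left out. For the difference from puberty, 363 genes became 116 without trend and robust estimation, 653 with sample weights, 550 with edgeR, 956 with DESeq2 and 100 to 579 with 1 library left out. For the difference from adulthood, 1751 genes became 802 to 1737 with 1 library left out. The share of calls toward basal cells changed with scaling: 27.8% of calls for puberty became 39.6% with TMM and 38.9% with quantile scaling, and 21.4% for adulthood became 34.7% with median-ratio and 44.4% with quantile scaling. The labels do not say that replicate numbers pair samples, and deviations of same-numbered libraries correlated by 0.07 between the compared groups. A replicate block within stage gave 3690 called genes, 732 for the difference from puberty and 2572 for that from adulthood. Of the 40 genes of the marker panel and the largest rises and falls 0 reversed: 66 of 160 values with 1 library left out missed the threshold, against 9 of 600 under the other settings. Another 14 of these 600 were stronger than in the main fit. With 2 libraries a group, calls on luminal genes rest on ER+ luminal libraries that differ from each other, and genes with few reads have wide counting intervals.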
